A study of Mus musculus with 9 samples.

Results

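Oxidative phosphorylation was examined through 78 nuclear genes that encode subunits of its 5 enzyme complexes, out of 22180 genes measured. The members were taken by symbol, as Nduf, Sdh, Uqcr, Cox4 to Cox8 and Atp5 genes without pseudogenes, on probe sets that name exactly 1 gene. Where a gene had several such probe sets, the brightest on average stood for it. Complex I had 33 members, complex II 4, complex III 7, complex IV 17 and complex V 17, and all of them entered the test, since no filter on dim genes was applied. Cox6c, Ndufb2, Ndufb4, Ndufb4b, Ndufb4c, Ndufs6, Ndufs6b and Uqcr10 lay only on probe sets with several symbols and were left out. The subunits encoded by mitochondrial DNA were not analysed here.

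The arrays measured RNA of long-term haematopoietic stem cells, sorted from C57BL/6 marrow as lineage-negative, Sca-1-positive and c-kit-positive cells lacking CD34 and CD135. The 3 groups, of 3 biological replicates each, were Jak2VF_Ezh2KO (MxCre, Jak2VF/+ and EZH2-/-), Jak2VF (MxCre and Jak2VF/+) and WT. At 4 weeks of age each mouse had pI-pC, which switches on MxCre, in 5 doses of 300 µg, and the marrow was taken 12 weeks later. MxCre is driven by an interferon-responsive promoter and acts in cells beyond the stem cell, and the sources used here do not state whether WT mice had it. Jak2VF is the activated form of the kinase Jak2 that drives myeloproliferative neoplasms, and Ezh2 is a catalytic subunit of Polycomb repressive complex 2.

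The median log2 signal of an array was 5.51 to 5.67. The Ezh2 probe set read 8.47, 8.08 and 8.42 in Jak2VF_Ezh2KO, against 8.87, 9.09 and 8.78 in Jak2VF and 8.48, 8.81 and 8.69 in WT, and whether this probe set covers the deletion is not stated in the sources used here. Replicates 1 and 2 of Jak2VF_Ezh2KO had Y-linked signal with little Xist, unlike the other 7 arrays, so that sex is mixed in 1 group only. The stem cell marker Kit averaged 9.77 in Jak2VF_Ezh2KO, 9.84 in Jak2VF and 9.77 in WT. Procr, another stem cell marker, averaged 8.05 in Jak2VF_Ezh2KO, 7.15 in Jak2VF and 7.78 in WT, and Mecom 7.36, 7.05 and 7.76 in the same groups. Of 11 stem cell markers, 3 had all Jak2VF arrays below all WT arrays (apart and lower) and 0 above, against 2.57% and 3.54% of all genes. In Jak2VF_Ezh2KO 2 of them were apart and higher than in Jak2VF and 2 lower, against 4.18% and 6.94% of all genes. Cd34, whose protein the gate excludes, averaged 9.98 in Jak2VF_Ezh2KO, 10.53 in Jak2VF and 10.32 in WT.

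In the mitochondrial inner membrane, complexes I and II pass electrons from NADH and succinate to ubiquinone, complex III hands them to cytochrome c, and complex IV reduces oxygen. Complexes I, III and IV pump protons, and complex V, the ATP synthase, uses the gradient to make ATP. Complexes I, III, IV and V join core subunits that carry the redox centres or the catalytic sites with accessory subunits needed for assembly and stability. Mitochondrial DNA encodes some of the core subunits of every complex except complex II. Quiescent haematopoietic stem cells are known for low mitochondrial respiration and a strong use of glycolysis, with a switch towards oxidative phosphorylation on activation.

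The median log2 signal of the members' probe sets over the 9 arrays was 8.96, against 5.76 over all genes, and 64 of the 78 lay in the brightest 20% of the genes. Within a group the members varied about as much as other genes, with a median pooled SD of 0.204 for the members and 0.220 over all genes. The brightest probe set of each complex was that of Ndufa4 in complex I (a subunit now regarded as part of complex IV), Sdha in complex II, Uqcrb in complex III, Cox6a1 in complex IV and Atp5e in complex V. Probe sets differ in brightness for reasons other than RNA amount, so levels of different genes are not set against each other. At the dim end stood isoforms known from other tissues, of which Cox7b2 read 2.88, 3.57 and 3.17 in Jak2VF_Ezh2KO, 3.62, 2.85 and 2.94 in Jak2VF and 3.46, 2.73 and 3.49 in WT.

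No member passed the test over all genes in any of the 3 comparisons (limma, Benjamini-Hochberg adjusted p under 0.05). Of all genes, 0.0225% passed between Jak2VF_Ezh2KO and WT, 0.0451% between Jak2VF_Ezh2KO and Jak2VF, and 0% between Jak2VF and WT, so that few genes of any kind passed. The lowest adjusted p of a member was 0.159, for Cox6b2 in Jak2VF_Ezh2KO against WT. What follows therefore describes levels and how far the groups lay apart, with members called apart where all 3 arrays of one group lie above or below all 3 arrays of the other.

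Between Jak2VF_Ezh2KO and WT, 67 of the 78 members had a positive difference, against 46.5% of all genes. The 3 Jak2VF_Ezh2KO arrays lay above the 3 WT arrays for 31 members and below them for 0, whereas 6.28% of all genes were apart and higher and 6.62% apart and lower. At an unadjusted p under 0.05, 21 members were higher and 0 lower, against 4.54% and 4.06% of all genes. That count of higher members was 12 with sex as a covariate and 10 when both arrays with Y-linked signal were left out, against 3.62% and 3.27% of all genes. The median difference was 0.20 on the log2 scale for the members and -0.02 over all genes. In the brightest 20% of the genes, a comparison added after seeing the data, 11.8% were apart and higher and 6.31% apart and lower, against 46.9% of the 64 members there (30 genes) that were apart and higher. The 14 dimmer members had 1 gene apart and higher and a median difference of 0.04. Leaving out WT replicate 2 gave 49 members apart and higher, against 16.1% of all genes, and leaving out Jak2VF_Ezh2KO replicate 2 gave 47, against 10.9%. Leaving out both Jak2VF_Ezh2KO arrays with Y-linked signal gave 53, against 23.0% of all genes apart and higher and 24.6% apart and lower. Fewer arrays make separation easier, for members and for all genes.

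**Figure D1:**
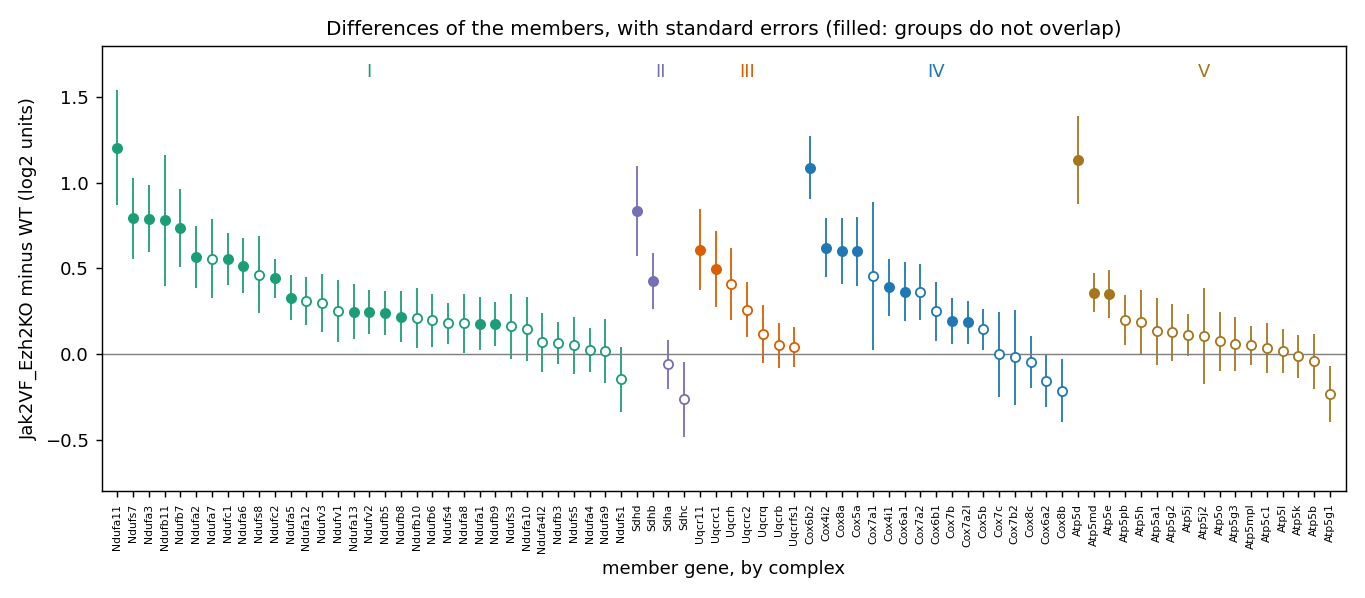
Differences between Jak2VF_Ezh2KO and WT (log2 units) for the 78 members, ordered within complexes I to V, with bars for the standard error of the limma fit. Filled points mark the 31 members whose groups do not overlap, all of them above 0, and 11 members lie below 0.

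Complex I, which oxidises NADH, had a mean difference of 0.33 between Jak2VF_Ezh2KO and WT, with 32 of its 33 members positive and 16 apart and higher. Of all genes 46.5% were positive and 6.28% apart and higher, and of the brightest 20% of the genes 58.5% and 11.8%. Ndufa11, an accessory subunit of the membrane arm, read 10.17, 10.04 and 10.71 in Jak2VF_Ezh2KO, 9.26, 10.18 and 9.43 in Jak2VF and 8.39, 9.53 and 9.39 in WT. All 3 Jak2VF_Ezh2KO arrays were above all WT arrays, and 1 Jak2VF array fell among them. The difference from WT was 1.20 with a standard error of 0.34, a 2.30-fold higher signal (limma, adjusted p = 0.438), and a second, dimmer Ndufa11 probe set read 7.15, 6.69 and 7.80 in Jak2VF_Ezh2KO against 6.27, 6.78 and 6.68 in WT, where the groups overlapped.

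Ndufa3, another accessory subunit, read 10.53, 10.84 and 10.63 in Jak2VF_Ezh2KO, against 9.97, 10.42 and 9.89 in Jak2VF and 9.62, 10.22 and 9.80 in WT. The Jak2VF_Ezh2KO arrays were above the other 6, by 0.79 over WT with a standard error of 0.20 (adjusted p = 0.386). Ndufc2, an accessory subunit of the membrane arm, differed less but varied little, with 10.66, 10.67 and 10.79 in Jak2VF_Ezh2KO, 10.26, 10.38 and 10.28 in Jak2VF and 10.21, 10.33 and 10.25 in WT. The Jak2VF and WT arrays of Ndufc2 overlapped, and all of them were below the lowest Jak2VF_Ezh2KO array, a difference of 0.44 ± 0.11 (SE) from WT (adjusted p = 0.400). Ndufa6, an accessory subunit of the LYR family, read 10.28, 10.70 and 10.57 in Jak2VF_Ezh2KO, against 9.72, 10.09 and 10.13 in Jak2VF and 9.96, 10.10 and 9.95 in WT, with a difference of 0.52 from WT (adjusted p = 0.466).

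The core subunits of complex I, which hold the flavin and the iron-sulfur clusters, were less uniform. Ndufs7, which carries the last cluster before ubiquinone, read 8.75, 8.58 and 8.88 in Jak2VF_Ezh2KO, 7.78, 8.67 and 8.02 in Jak2VF and 7.68, 8.27 and 7.89 in WT. Its difference from WT was 0.79 with a standard error of 0.24 (adjusted p = 0.457), with no overlap with WT and an overlap with Jak2VF. Ndufv2, which holds an iron-sulfur cluster beside the flavin site, was also apart from WT, with a difference of 0.24 (adjusted p = 0.636). Ndufs8 differed from WT by 0.46, Ndufv1, the subunit that binds NADH and flavin, by 0.25, and Ndufs3 by 0.16, each with overlapping groups. Ndufs1, a large iron-sulfur subunit, differed by -0.15 and was the 1 complex I member with a negative value. Of the 6 core members 2 were apart and higher, with a median difference of 0.25. Of the 27 accessory members 14 were, with a median of 0.24, and of all genes 6.28% were.

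Complex II, which is also the succinate dehydrogenase of the tricarboxylic acid cycle, was split within itself. Sdhd, a membrane anchor, read 8.26, 8.15 and 8.33 in Jak2VF_Ezh2KO, 7.73, 8.47 and 7.71 in Jak2VF and 6.95, 7.91 and 7.37 in WT. Its difference from WT was 0.84 with a standard error of 0.26 (adjusted p = 0.466), without overlap with WT. Sdhb, the iron-sulfur subunit, was apart from WT as well, by 0.43 (adjusted p = 0.537). Sdhc, the other membrane anchor, read 8.44, 8.34 and 8.47 in Jak2VF_Ezh2KO, 8.99, 9.12 and 8.63 in Jak2VF and 8.21, 9.12 and 8.72 in WT. Sdhc was below all Jak2VF arrays in Jak2VF_Ezh2KO, while the WT arrays spanned the range of both, and Sdha, the flavoprotein, differed from WT by -0.06.

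Complex III had a mean difference of 0.28 from WT, with 7 of 7 members positive and 2 apart and higher, against 46.5% and 6.28% of all genes. Uqcr11, a small accessory subunit, read 8.71, 8.89 and 8.79 in Jak2VF_Ezh2KO, 8.03, 8.75 and 8.02 in Jak2VF and 7.77, 8.53 and 8.27 in WT, a difference of 0.61 from WT (adjusted p = 0.540). Uqcrc1, a core protein of the matrix side, differed by 0.50 without overlap, and its partner Uqcrc2 by 0.26 with overlap. Uqcrfs1, the Rieske iron-sulfur protein, differed by 0.04 and read between 7.13 and 7.40 on the 9 arrays. Cyc1 and Cycs, cytochromes that the symbol rule leaves out, differed from WT by 0.49 and 0.18 with overlapping groups, and Ndufab1, the acyl carrier protein in complex I, by 0.30. Testis cytochrome c, Cyct, differed by 0.09.

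Complex IV had a mean difference of 0.28 from WT. Of its 17 members 12 were positive and 8 apart and higher, against 46.5% and 6.28% of all genes. It also held the member with the smallest p. Cox6b2, the isoform of subunit 6B best known from testis, read 9.93, 10.08 and 10.06 in Jak2VF_Ezh2KO, 9.08, 9.56 and 9.33 in Jak2VF and 8.81, 9.30 and 8.70 in WT. All 3 Jak2VF_Ezh2KO arrays were above all 6 others, while Jak2VF and WT overlapped. Cox6b2 differed from WT by 1.09 with a standard error of 0.18, a 2.13-fold higher signal (adjusted p = 0.159), and from Jak2VF by 0.70 (adjusted p = 0.406). A fit with sex as a covariate takes Jak2VF_Ezh2KO from replicate 3 alone, its only array without Y-linked signal. There Cox6b2 differed from WT by 1.13. Its ubiquitous counterpart Cox6b1 differed from WT by 0.25, with overlap.

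Cox4i2, the isoform of subunit 4 best known from lung, was dimmer, with 6.82, 6.83 and 6.53 in Jak2VF_Ezh2KO, 6.59, 6.19 and 6.21 in Jak2VF and 6.05, 5.90 and 6.37 in WT. It was apart from WT by 0.62 (adjusted p = 0.438), and the ubiquitous Cox4i1 was apart by 0.39 (adjusted p = 0.574). Cox5a, a nuclear subunit of the matrix side, was apart by 0.60 (adjusted p = 0.50), Cox8a, a small membrane subunit, by 0.60 (adjusted p = 0.466), and Cox5b, the zinc-binding subunit, differed by 0.14 with overlap. Of the 8 isoforms restricted to certain tissues, Cox6b2 and Cox4i2 were apart and higher, against 6.28% of all genes. The muscle isoforms Cox6a2, Cox8b and Cox7a1 differed from WT by -0.16, -0.21 and 0.46, the testis isoforms Cox7b2 and Cox8c by -0.02 and -0.05, and Ndufa4l2, a hypoxia-induced relative of Ndufa4, by 0.07, all with overlapping groups.

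Complex V had a mean difference from WT of 0.16, with 14 of 17 members positive and 3 apart and higher. Of all genes 46.5% were positive and 6.28% apart and higher, and of the brightest 20% of the genes 58.5% and 11.8%. Atp5d, the delta subunit of the central stalk, read 10.78, 10.90 and 11.11 in Jak2VF_Ezh2KO, 9.83, 10.81 and 10.24 in Jak2VF and 9.63, 10.23 and 9.52 in WT. It differed from WT by 1.13 with a standard error of 0.26 (adjusted p = 0.304) and overlapped with Jak2VF, and its second probe set, at 7.83, 7.70 and 8.07 in Jak2VF_Ezh2KO against 6.76, 7.42 and 6.96 in WT, was apart as well. Atp5e, its neighbour in the stalk, was apart by 0.35 and Atp5md, a small membrane subunit, by 0.36. The catalytic beta subunit Atp5b differed by -0.04, the alpha subunit Atp5a1 by 0.13 and the gamma subunit Atp5c1 by 0.03, all with overlap. Of the 3 genes for the c ring, Atp5g2 and Atp5g3 differed by 0.13 and 0.06, and Atp5g1 by -0.23, with 1 value, 5.48, repeated on 5 of the 9 arrays. The beta and gamma subunits stood close to WT, and the alpha subunit was near the complex V median difference of 0.10.

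**Figure D2:**
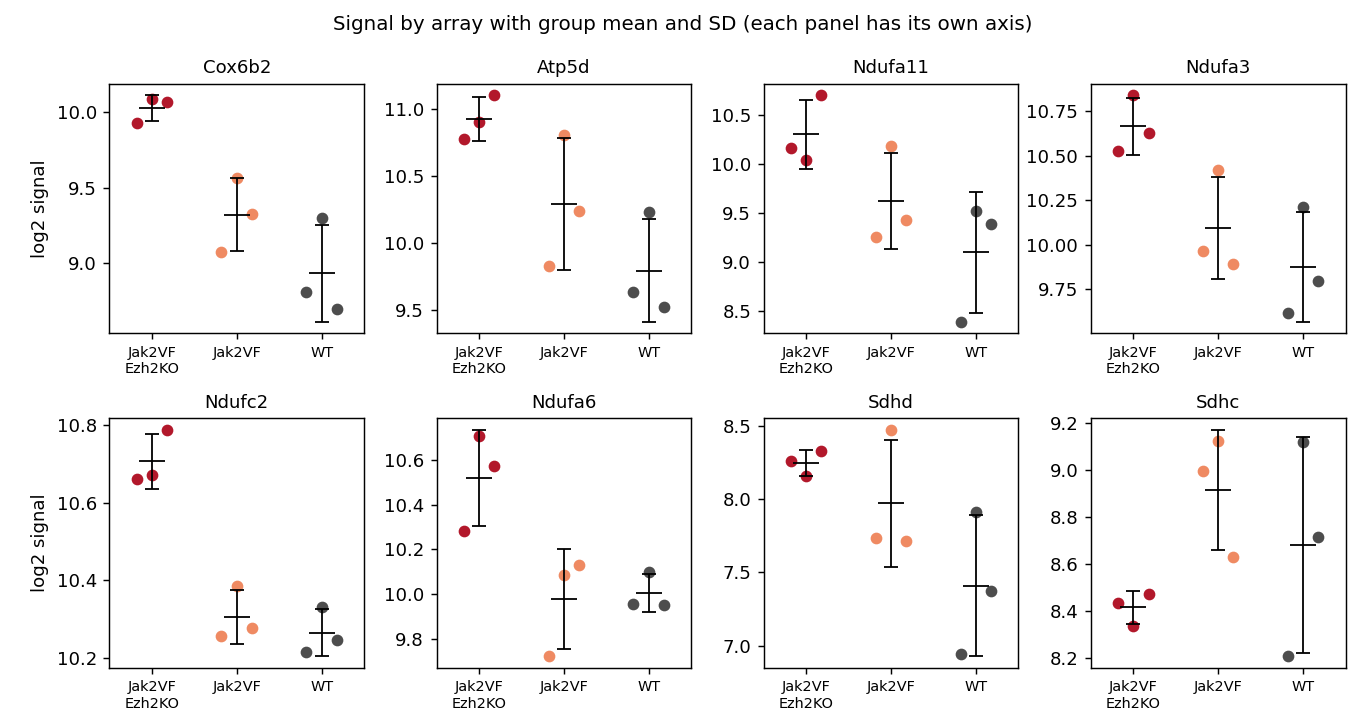
Log2 signal of 8 members on the 3 arrays of each group, with the group mean and SD in black and a separate axis for each gene. Cox6b2, Ndufa3, Ndufc2 and Ndufa6 are above all other arrays in Jak2VF_Ezh2KO, whereas the Jak2VF_Ezh2KO arrays of Atp5d, Ndufa11 and Sdhd overlap with Jak2VF, and Sdhc is below Jak2VF.

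Jak2VF_Ezh2KO against Jak2VF asks what the loss of Ezh2 adds on the mutant Jak2 background. This comparison shares the Jak2VF_Ezh2KO arrays with the comparison above. A positive difference was seen in 60 of the 78 members, against 41.8% of all genes, with a median of 0.14 against -0.04. Apart and higher were 13 members, against 4.18% of all genes, and apart and lower was Sdhc, against 6.94% of all genes. In the brightest 20% of the genes 5.52% were apart and higher and 13.3% apart and lower, against 20.3% of the 64 members there that were apart and higher. At an unadjusted p under 0.05, 15 members were higher and 1 lower, against 2.91% and 3.99% of all genes. The 15 depended on single arrays: the count was 5 without Jak2VF replicate 3, 7 without Jak2VF replicate 1, 24 without Jak2VF replicate 2, 7 without Jak2VF_Ezh2KO replicate 2 and 8 without Jak2VF_Ezh2KO replicate 3, against 2.48% to 3.66% of all genes. With sex as a covariate, or with both arrays with Y-linked signal left out, only replicate 3 stands for Jak2VF_Ezh2KO. In each of these fits 60 members were positive, against 43.3% and 43.2% of all genes. The count of members apart and higher was 42 without Jak2VF replicate 2, against 9.98% of all genes, and 20 without Jak2VF_Ezh2KO replicate 2, against 7.39%. When both arrays with Y-linked signal were left out it was 33, against 18.3% of all genes apart and higher and 24.6% apart and lower. After quantile normalization it was 25, against 6.05% of all genes.

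The 13 members were Ndufa2, Ndufa3, Ndufa5, Ndufa6, Ndufb5, Ndufb7, Ndufc1 and Ndufc2 of complex I, Uqcrb of complex III, Cox6b2 and Cox7b of complex IV, and Atp5md and Atp5mpl of complex V. The 8 complex I genes are all accessory subunits. Ndufc1, a small subunit of the membrane arm, read 7.92, 7.90 and 7.78 in Jak2VF_Ezh2KO, 7.03, 7.51 and 7.33 in Jak2VF and 7.28, 7.48 and 7.16 in WT. It differed from Jak2VF by 0.58 with a standard error of 0.15 (adjusted p = 0.408), while Jak2VF and WT overlapped. Ndufa5, a subunit of the matrix arm, differed from Jak2VF by 0.42 (adjusted p = 0.529), Ndufa2 by 0.47 (adjusted p = 0.646) and Ndufb7 by 0.54 (adjusted p = 0.703). The 27 accessory members of complex I had a median difference of 0.19, with 8 apart and higher. The 6 core members had a median of 0.01, with 0 apart, and of all genes 4.18% were apart and higher. The difference between core and accessory members was not tested.

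By complex, the mean difference between Jak2VF_Ezh2KO and Jak2VF was 0.20 for complex I, -0.05 for complex II, 0.23 for complexes III and IV and 0.09 for complex V. With each array left out in turn these means ran from 0.13 to 0.32, -0.14 to 0.09, 0.15 to 0.37, 0.19 to 0.30 and 0.04 to 0.18 for complexes I to V. Without Jak2VF replicate 2 complex I was at 0.32, complex III at 0.37 and complex V at 0.18, and complex II turned positive, at 0.09. Sdhc differed by -0.50 with a standard error of 0.22 (adjusted p = 0.719), and Sdha by -0.17. Ndufa9, an accessory subunit near the ubiquinone site, differed by -0.36 (adjusted p = 0.742), with 8.52, 7.98 and 8.50 in Jak2VF_Ezh2KO against 8.50, 8.99 and 8.59 in Jak2VF. The Ndufa9 groups overlapped through replicate 1 of both groups. Ndufa10 and Ndufs1 differed by -0.17 each, and Atp5b, also with overlap, by -0.17.

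For 11 members all 3 Jak2VF_Ezh2KO arrays were above the other 6 arrays, against 2.15% of all genes, and for 0 members they were below them, against 2.40% of all genes. Of 71 mitochondrial ribosomal protein genes 11 were above and 1 below, and of 68 cytosolic ones 6 and 0. The 11 members were the 8 accessory complex I genes above, Cox6b2, Cox7b and Atp5md. Cox7b, an X-linked subunit of complex IV, read 10.87, 11.14 and 10.90 in Jak2VF_Ezh2KO, 10.68, 10.71 and 10.41 in Jak2VF and 10.75, 10.85 and 10.73 in WT, and its second probe set, at 6.66, 6.29 and 6.96 in Jak2VF_Ezh2KO, overlapped with both other groups. The X-linked Ndufa1 and Ndufb11 differed from WT by 0.18 and 0.78 and were apart from WT, with an overlap with Jak2VF.

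Jak2VF against WT asks about the mutant Jak2 allele without the loss of Ezh2, together with MxCre if the WT mice lacked it. A positive difference was seen in 56 of the 78 members, against 55.8% of all genes and against 76.8% of the brightest 20%, and 50 of the 64 members there, 78.1%, were positive. Apart and higher were Ndufa9, Ndufb9 and Ndufs4, against 3.54% of all genes and 5.91% of the brightest 20%, and apart and lower were Cox7b and Atp5k, against 2.57% and 1.33%. At an unadjusted p under 0.05, 0 members were higher or lower, against 2.85% and 1.81% of all genes. These shares lie near the background. By complex, the mean difference between Jak2VF and WT was 0.13, 0.29, 0.05, 0.05 and 0.07 for complexes I to V, with 4 of 4 complex II members positive. With each array left out in turn these means ran from 0.02 to 0.22, 0.14 to 0.45, -0.09 to 0.13, -0.02 to 0.09 and -0.03 to 0.13. Sdhd had the largest difference of the members, 0.56 with a standard error of 0.26 (adjusted p = 0.924), with 7.73, 8.47 and 7.71 in Jak2VF against 6.95, 7.91 and 7.37 in WT.

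Much of the Jak2VF mean came from replicate 2. The mean over all members, relative to WT, was 0.27, 0.21 and 0.33 in Jak2VF_Ezh2KO, -0.01, 0.32 and 0.01 in Jak2VF and -0.11, 0.14 and -0.03 in WT. Jak2VF replicate 2 was the highest of the 9 arrays for 29 members, and WT replicate 1 was the lowest for 31. Without Jak2VF replicate 2 the mean difference between Jak2VF and WT was -0.0044, against 0.10 with it, and 37 members were positive. Without WT replicate 2, 21 members were apart and higher in Jak2VF, against 14.7% of all genes. Without WT replicates 1 and 3 in turn there were 5 members each, against 6.44% and 6.20% of all genes. Without Jak2VF replicates 1 and 3 in turn there were 10 and 8, against 12.0% and 6.21%. Without Jak2VF replicate 2, 3 members were apart and higher and 8 apart and lower, against 7.66% and 4.87% of all genes. The spread within Jak2VF was wide for many members, as in Ndufb11, at 6.81, 8.13 and 6.53.

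**Figure D3:**
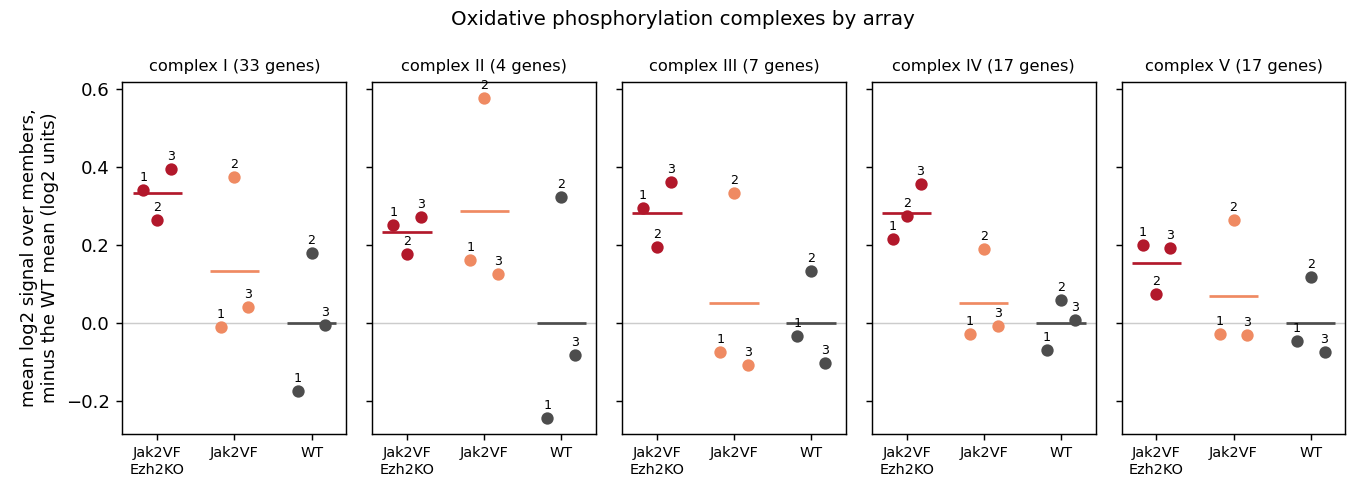
Mean log2 signal over the members of each complex on each array, minus the mean of the 3 WT arrays (log2 units), with replicate numbers above the points and lines at the group means. Jak2VF_Ezh2KO arrays lie close together and above the WT mean in every complex, and Jak2VF replicate 2 stands above the other Jak2VF arrays. WT replicate 2 lies above all Jak2VF_Ezh2KO arrays in complex II and above Jak2VF_Ezh2KO replicate 2 in complex V.

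**Figure D4:**
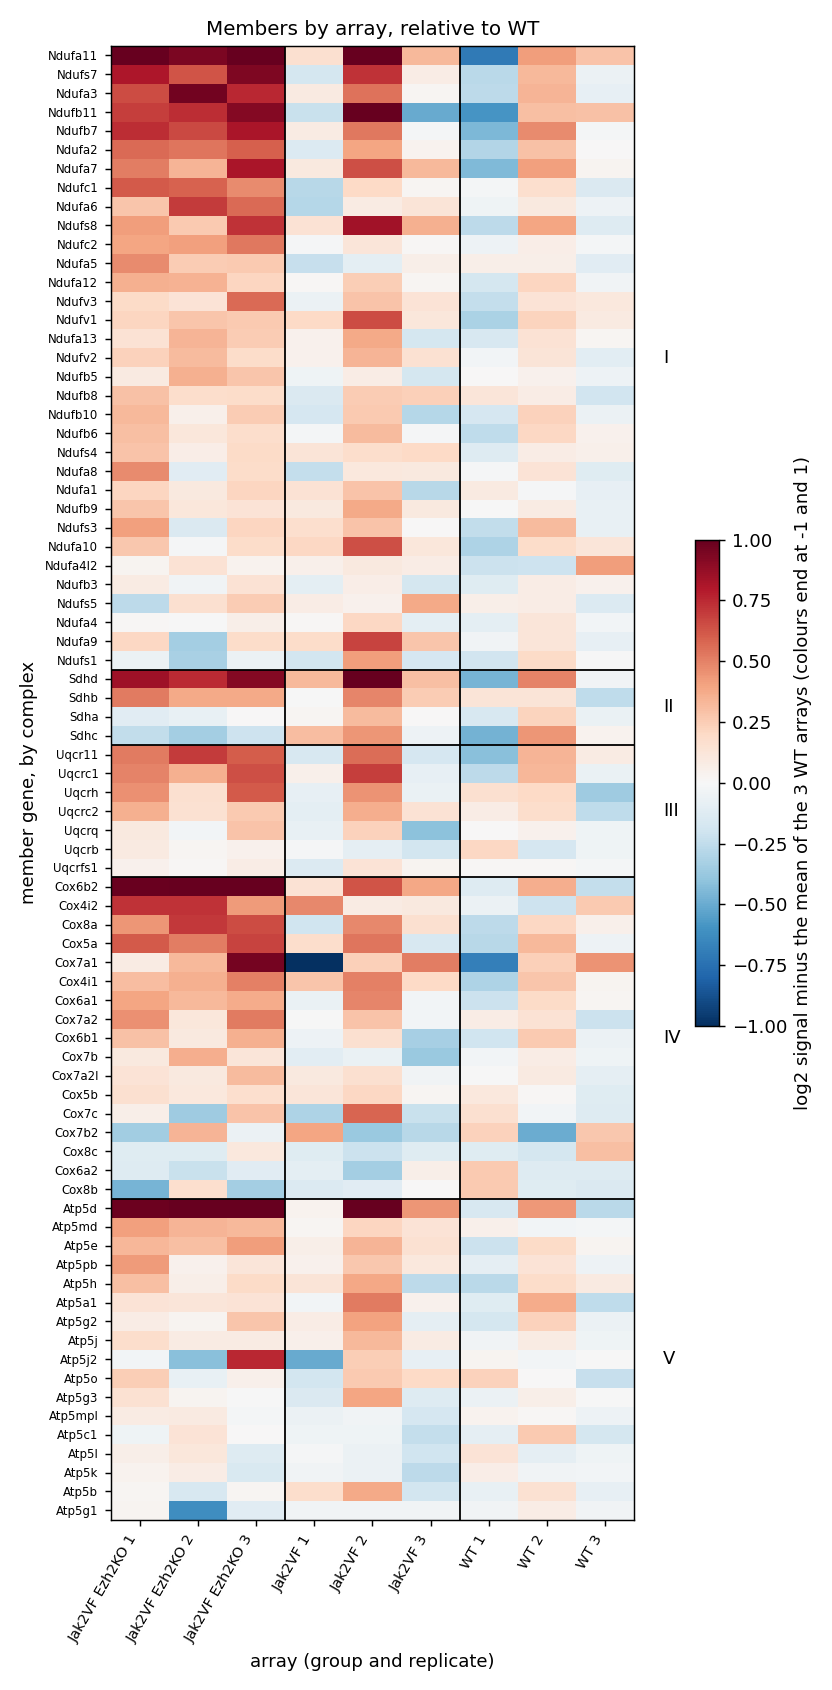
Log2 signal of each of the 78 members on each array minus the mean of the 3 WT arrays, ordered within complexes by the difference between Jak2VF_Ezh2KO and WT, with colours ending at -1 and 1. The columns of the 3 Jak2VF_Ezh2KO arrays and of Jak2VF replicate 2 are mostly red, and WT replicate 1 is mostly blue.

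Other measures differed between the same arrays. The mean of 24 cell cycle genes relative to WT, a list chosen after seeing the data, was 0.19, 0.09 and 0.20 in Jak2VF_Ezh2KO, 0.21, 0.71 and -0.03 in Jak2VF and -0.39, 0.34 and 0.05 in WT, so that Jak2VF replicate 2 and WT replicate 1 stood out here as they did for the members. The mean of 1394 olfactory and vomeronasal receptor genes, a measure of the signal of genes that blood cells hardly use, was -0.19, -0.08 and -0.23 in Jak2VF_Ezh2KO, 0.18, -0.30 and -0.22 in Jak2VF and 0.08, -0.27 and 0.18 in WT. With that mean as a covariate, the mean difference of the members between Jak2VF_Ezh2KO and WT was 0.19, against 0.27 without it, and 62 members were positive. Of 7 mast cell and basophil markers, 6 were apart and higher in Jak2VF_Ezh2KO than in WT, against 6.28% of all genes. Their summed linear signal was 874 to 1340 in Jak2VF_Ezh2KO, 601 to 818 in Jak2VF and 248 to 376 in WT. The mast cell protease Cma1 passed the test against WT, with a difference of 1.67 (adjusted p = 0.0459), and averaged 6.58 in Jak2VF_Ezh2KO and 4.91 in WT. Of 5 erythroid markers measured, 5 had a positive difference from WT, with a median of 0.49, against 46.5% of all genes positive. Apart and higher was 1 of them. Their summed signal was 2500 to 3395 in Jak2VF_Ezh2KO, 1552 to 3945 in Jak2VF and 1862 to 3262 in WT. Their mean relative to WT was 0.68, 0.57 and 0.28 in Jak2VF_Ezh2KO, -0.44, 0.78 and -0.14 in Jak2VF and -0.48, 0.46 and 0.02 in WT. Against WT, T and NK cell markers had 2 of 8 apart and higher and 1 lower, with a summed signal of 840 to 1041 in Jak2VF_Ezh2KO, 1048 to 1354 in Jak2VF and 703 to 932 in WT. Megakaryocyte markers had 0 of 7 apart and higher and 1 lower, B cell markers 1 of 7 apart and higher and 0 lower, neutrophil and monocyte markers 1 of 10 apart and higher and 0 lower, and stem cell markers 1 of 11 apart and higher and 3 lower. All these counts against WT stand beside 6.28% of all genes apart and higher and 6.62% apart and lower. The mean of the B cell markers relative to WT was -0.14, -0.02 and 0.90 in Jak2VF_Ezh2KO, so that replicate 3 carried this signal. Replicate 3 is also the array on which the fits with sex taken into account rest. In Jak2VF_Ezh2KO relative to Jak2VF, 41.8% of all genes had a positive difference, 4.18% were apart and higher and 6.94% apart and lower. There 7 of 7 megakaryocyte markers had a negative difference, with a median of -0.67, and 4 were apart and lower. Their summed signal was 1175 to 1547 in Jak2VF_Ezh2KO, 1691 to 2670 in Jak2VF and 1280 to 1767 in WT. Itga2b, the platelet integrin subunit, passed the test, at 6.84 in Jak2VF_Ezh2KO against 8.29 in Jak2VF, a difference of -1.45 (adjusted p = 0.0441). In the same comparison 4 of 7 mast cell and basophil markers were apart and higher, and Cma1 passed, at 6.58 in Jak2VF_Ezh2KO against 4.96 in Jak2VF, a difference of 1.63 (adjusted p = 0.0441). Of the 5 erythroid markers 4 had a positive difference there, with a median of 0.47, and 0 were apart. The part of these other signals in the members' levels was not tested, and in bulk RNA a change in the mixture of cells and a change in RNA per cell cannot be told apart.

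Promoters of members were looked up in RefSeq (GRCm38.p6), in windows from 250 bases before to 50 after the start, which matched 64 of the 78 members. Nuclear respiratory factor 1 (NRF1) and the ETS factor GABP are known regulators of many of these genes. NRF1 letters were taken as GCGCA followed by any base and GCGC, and ETS letters as CCGGAAG, on both strands. NRF1 letters were present in 15 of the 64 members (23.4%), against 7.26% of the 16918 array genes with a window, and ETS letters in 17 (26.6%), against 12.7%. These background shares include dim genes, whereas most members are bright, and no share among bright genes was taken. Of members with NRF1 letters, 6 of 15 were apart and higher in Jak2VF_Ezh2KO than in WT, and 21 of 49 without them. For ETS letters the counts were 8 of 17 with them and 19 of 47 without them. The letters describe these windows, and no binding was measured. Shown are 2 members with NRF1 letters that were apart from WT (Ndufa11 at chr17:56717512-56717811, plus strand, and Sdhd at chr9:50603800-50604099, minus strand), a member with NRF1 letters at the level of WT (Sdha at chr13:74350191-74350490, minus strand), and Cox6b2, with neither (chr7:4753045-4753344, minus strand). Capitals mark NRF1 or ETS letters on either strand.
Ndufa11: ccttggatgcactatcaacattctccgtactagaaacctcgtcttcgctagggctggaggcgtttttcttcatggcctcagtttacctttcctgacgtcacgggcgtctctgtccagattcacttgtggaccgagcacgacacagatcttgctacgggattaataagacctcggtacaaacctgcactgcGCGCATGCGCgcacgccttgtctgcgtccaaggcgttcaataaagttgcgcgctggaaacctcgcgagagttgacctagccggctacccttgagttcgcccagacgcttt
Sdhd: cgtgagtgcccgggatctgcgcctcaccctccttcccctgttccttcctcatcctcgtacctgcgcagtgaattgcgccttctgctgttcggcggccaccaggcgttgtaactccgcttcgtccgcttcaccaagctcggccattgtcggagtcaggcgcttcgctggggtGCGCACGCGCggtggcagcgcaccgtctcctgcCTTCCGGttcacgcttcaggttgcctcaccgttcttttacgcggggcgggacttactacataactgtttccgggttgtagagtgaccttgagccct
Sdha: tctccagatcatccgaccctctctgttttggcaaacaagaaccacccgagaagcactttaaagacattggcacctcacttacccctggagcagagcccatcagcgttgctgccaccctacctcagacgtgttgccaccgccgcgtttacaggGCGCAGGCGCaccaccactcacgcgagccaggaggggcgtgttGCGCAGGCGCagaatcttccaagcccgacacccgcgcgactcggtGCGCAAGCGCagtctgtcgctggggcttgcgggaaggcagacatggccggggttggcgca
Cox6b2: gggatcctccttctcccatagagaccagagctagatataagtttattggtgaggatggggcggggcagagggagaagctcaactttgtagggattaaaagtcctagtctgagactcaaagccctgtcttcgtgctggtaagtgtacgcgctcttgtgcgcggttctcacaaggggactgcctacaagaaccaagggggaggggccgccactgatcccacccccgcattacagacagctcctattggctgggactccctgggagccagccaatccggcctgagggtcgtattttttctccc
Ndufa11 and Sdha thus both hold NRF1 letters, with 1 and 3 matches, and differed from WT by 1.20 and -0.06. Cox6b2, with the smallest p, holds neither.

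Genes that act beside the complexes were described by lists. Of 71 mitochondrial ribosomal protein genes, which make the subunits encoded by mitochondrial DNA, 31 were apart and higher in Jak2VF_Ezh2KO than in WT and 1 was lower, with a median difference of 0.41. Cytosolic ribosomal protein genes had 18 of 68 apart and higher and 2 lower, with a median of 0.08. Relative to Jak2VF, 11 of the 71 mitochondrial ones were apart and higher and 2 lower, and 9 of the 68 cytosolic ones and 1. Of all genes, 4.18% and 6.94% were so there. The lists that follow are again set against WT. Glycolysis genes had 3 of 15 apart and higher and 1 lower, tricarboxylic acid cycle genes 2 of 20 and 1, and genes of mitochondrial gene expression and biogenesis, such as the transcription factor Tfam, 0 of 18 and 1. The medians of these 3 lists were 0.07, 0.06 and 0.03. For the comparison with WT, each list is read against the 6.28% of all genes that were apart and higher and the 11.8% of the brightest 20%. No difference between lists was tested.

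**Figure D5:**
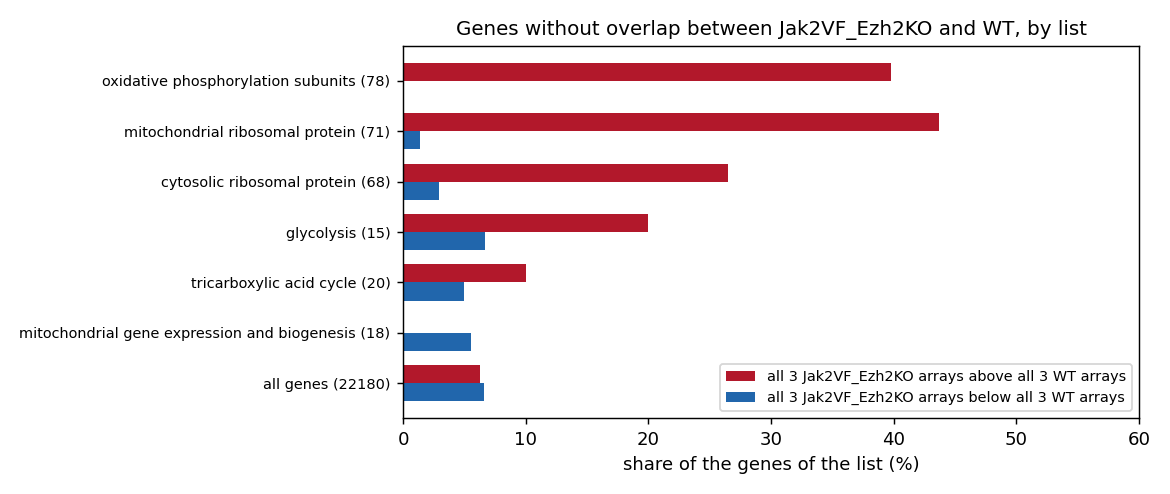
Share of the genes of each list (%) whose 3 Jak2VF_Ezh2KO arrays all lie above (red) or all below (blue) the 3 WT arrays, with the number of genes in brackets. The oxidative phosphorylation subunits, 31 of 78, and the mitochondrial ribosomal proteins, 31 of 71, have the largest red bars, and all genes, at the bottom, have 6.28% above and 6.62% below.

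Most assembly factors of complexes I to IV had a positive difference between Jak2VF_Ezh2KO and WT. The counts were 14 of 17, 3 of 4, 6 of 6 and 18 of 21 for complexes I to IV and 3 of 6 for complex V, against 46.5% of all genes. The median differences were 0.19, 0.18, 0.29, 0.20 and -0.03 for complexes I to V. Uqcc2, an assembly factor of complex III, read 9.82, 10.08 and 10.01 in Jak2VF_Ezh2KO, 8.99, 9.71 and 9.05 in Jak2VF and 8.82, 9.46 and 8.75 in WT. It was above both other groups, by 0.96 over WT (adjusted p = 0.386) and 0.72 over Jak2VF (adjusted p = 0.550). Sdhaf4, which helps to join Sdha with Sdhb, was apart by 0.69 over WT (adjusted p = 0.473) and 0.83 over Jak2VF (adjusted p = 0.416). Coa5, a complex IV assembly factor, was lower, with 8.62, 8.79 and 8.34 in Jak2VF_Ezh2KO, 9.41, 9.72 and 9.19 in Jak2VF and 9.59, 9.20 and 9.02 in WT, a difference of -0.86 from Jak2VF (adjusted p = 0.317), while Coa6, of the same complex, was apart and higher by 0.62 over WT (adjusted p = 0.438). Of 17 complex I assembly factors 2 were apart and higher than WT, of 4 for complex II 1, of 6 for complex III 1, of 21 for complex IV 4 with 1 lower, and of 6 for complex V 2. Of all genes 6.28% were apart and higher and 6.62% apart and lower. On the complex V list, Atpif1, the inhibitor of the ATP synthase, differed from WT by 0.39 without overlap (adjusted p = 0.518).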

How the data were processed

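Values deposited by the authors are log2 signals of 41345 probe sets on 9 arrays. The submitters' processing notes name Partek 6.6, and the background correction, normalization and build of the array are not stated in the sources used here. RNA came from sorted cells (10 ng, amplified with NuGEN Ovation Pico WTA V2), per the labels' protocols. Here, probe sets with 1 symbol in the platform annotation (23521, against 1814 with several and 16010 unnamed) gave 22180 genes, each by its brightest probe set. limma 3.58.1 in R 4.3.3 fitted all 9 arrays at once (lmFit and eBayes), with 6 residual and 3.83 prior degrees of freedom, and Benjamini-Hochberg adjustment over all genes of a comparison. The members and lists were chosen with earlier results of these data known. Named genes come from a rule that covers, per comparison, the 8 members with the smallest p in each direction, the brightest member of each complex, core, X-linked and tissue-restricted subunits, and up to 2 genes of a further list. Not every gene it covers is given, and members outside it were chosen after their values were seen. The number of arrays, 3 per group, limits the precision. The labels call the 3 samples of a group biological replicates, and whether one sample pooled several mice is not stated there. Alternatives were other variance models, normalizations, filters, probe set choices, covariates, blocks and samples. The fit was checked on simulated data, where it recovered 54% of 100 changes of 1 log2 unit and 94% of 100 changes of 2. Of 158 genes called there, 10 were unchanged. Smaller changes were not simulated, and most differences of members were below 1.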

Additional observations from a re-analysis of the deposited data

How the results depend on the processing

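No member passed at an adjusted p under 0.05 under any alternative run, and the lowest adjusted p of a member was 0.0541, for Cox6b2 against WT with array weights. Of the values of single members, 4890 stayed on the same side with the same sign, 237 changed sign without being called in either setting, and 0 reversed a call. As no member was called in any setting, no call could reverse. Several alternatives leave a difference unchanged by design, such as other variance models, the replicate block, or leaving out an array of the third group. The 4890 therefore does not measure how stable the differences are. Genes called between Jak2VF_Ezh2KO and Jak2VF numbered 10, against 0 with ordinary least squares, 4 after median centring, 19 after leaving out the dimmer genes, 0 with the 2 groups alone, 0 with every probe set tested and 0 without the pair with Y-linked signal. Between Jak2VF_Ezh2KO and WT they numbered 5, against 10 with an intensity trend and robust moderation, 0 with ordinary least squares, 3 after median centring, 0 with the 2 groups alone, 14 with array weights, 0 with every probe set tested, 0 with the receptor-gene covariate and 0 without the pair with Y-linked signal. With each array left out in turn, genes called ranged from 0 to 17 and from 0 to 14 in these 2 comparisons, and 0 were called between Jak2VF and WT. The cause of these shifts was not tested.

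Same-numbered arrays correlated between -0.23 and 0.48 in their deviations from the group means, and differently numbered arrays between -0.50 and 0.33. The highest value was that of replicate 2 of WT and Jak2VF. With 3 arrays per group these values cannot tell whether the replicate numbers pair the samples. With the replicate number as a block, 0 genes were called between Jak2VF_Ezh2KO and Jak2VF and 0 between Jak2VF_Ezh2KO and WT.

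With each array left out in turn, members apart and higher ranged from 31 to 49 for Jak2VF_Ezh2KO against WT, from 13 to 42 for Jak2VF_Ezh2KO against Jak2VF and from 3 to 21 for Jak2VF against WT, where fewer arrays separate more easily. Members with a positive difference between Jak2VF and WT ranged from 37 to 63. Leaving out the pair of arrays with Y-linked signal left only replicate 3 in Jak2VF_Ezh2KO. There, 53 and 33 members were apart and higher in Jak2VF_Ezh2KO than in WT and in Jak2VF, beside 23.0% and 18.3% of all genes. Quantile normalization gave 25 against Jak2VF, beside 6.05%. These counts were added after seeing the data. The mean over all members between Jak2VF_Ezh2KO and WT lay between 0.22 and 0.35 with an array left out.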
